A study of Mus musculus with 6 samples.

Results

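Intergenic H3K4me3 regions near a transcription start site (TSS) were taken from the first of 2 H3K4me3 CUT&RUN libraries of embryonic mouse oocytes. The rule was an annotation between genes and a centre no more than 10000 bp from the nearest TSS. It gave 360 of the 8129 regions of that list (4.43%, exact 95% interval 3.99 to 4.90%), or 31.5% of its 1144 intergenic regions. No measured score or width entered the choice. The 360 regions covered 209.6 kb of GRCm39, the genome build of the lists, and lay 1021 to 9975 bp from a TSS.

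The study used 6 libraries, 2 each for H3K4me3, TAF4b and IgG. All came from GFP-positive cells sorted at E16.5 from gonads of female embryos that carried an Oct4-EGFP reporter and were labelled C57BL/6 and wild type for Taf4b. Thus no group differed in genotype, age or treatment, and the only contrast is the antibody target. The reporter marks germ cells, the labels do not say how many embryos a library pooled, and without gene names the germ cell identity was not checked in these lists.

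CUT&RUN releases DNA around an antibody target with a tethered nuclease, so a listed region is a stretch where released fragments piled up. H3K4me3, trimethylation of lysine 4 of histone H3, is laid down by SET1 and MLL complexes and is concentrated at the first nucleosomes of active and CpG-rich promoters. In growing mouse oocytes the mark is known to spread into broad domains away from promoters, later than the stage studied here. H3K4me3 between genes may lie at enhancers, at start sites that an annotation lacks or at the edge of a promoter domain. TAF4b is a germ cell-enriched subunit of TFIID, the complex that binds core promoters and recruits RNA polymerase II.

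The H3K4me3 lists differed greatly in length, with 8129 regions in replicate 1 and 320 in replicate 2. TAF4b replicates 1 and 2 held 983 and 1111 peaks. The smallest H3K4me3 width was 500 bp in each list, and whether the calling set this floor is not given. TAF4b peaks had a fixed width of 90 or 134 bp. The distance to the TSS is counted from the region centre. For 1223 transcripts that were nearest to features at different positions, the centres and distances placed a single TSS to within 2 bp in all 1223.

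The intergenic regions near a TSS lay mainly upstream of it. Of the 360, 255 were upstream (70.8%, 65.8 to 75.5%) and 105 downstream. Intergenic regions beyond 10 kb were close to evenly divided, with 414 of 784 upstream (52.8%, 49.2 to 56.3%). The odds ratio of 2.17 had an exact interval of 1.65 to 2.87 and passed the threshold (p = 7.84e-09, adjusted p = 4.31e-08, Fisher's exact test, two-sided as in all tests below). The annotation class in the rule fixes part of the side close to a gene, as set out below. The call therefore describes the set and cannot separate the mark from the annotation.

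The upstream excess was steepest next to the gene. Between 1 and 2 kb from the TSS, 44 of 47 regions were upstream (93.6%, 82.5 to 98.7%). The share was 72.7% (64.1 to 80.2%) of 128 regions between 2 and 5 kb, and 63.8% (56.4 to 70.7%) of 185 between 5 and 10 kb. Upstream regions thinned out with distance, from 44 per kb at 1 to 2 kb to 31 per kb at 2 to 5 kb, 23.6 per kb at 5 to 10 kb and 12.5 per kb at 10 to 20 kb. Downstream density went from 3 per kb at 1 to 2 kb to 11.7, 13.4 and 10 per kb in the same later bins.

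**Figure D1:**
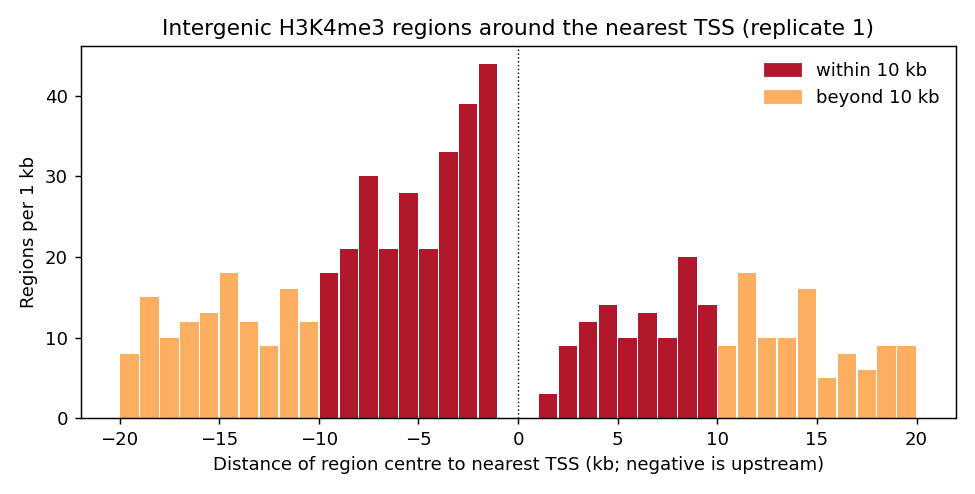
Number of intergenic H3K4me3 regions of replicate 1 in each 1 kb of signed distance from region centre to nearest TSS, with negative distances upstream. Red bars are the 360 regions within 10 kb and orange bars are regions beyond it; the highest bar holds 44 regions, at 1 to 2 kb upstream, against 3 at 1 to 2 kb downstream.

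The annotation classes bear on this side. A position downstream of a start usually lies inside the gene and is then annotated to an intron, exon or transcription end site. With all classes joined, the list held 1526 regions between 1 and 10 kb of a TSS, of which 689 were upstream (45.2%, 42.6 to 47.7%). Intergenic regions were 37.0% of those upstream and 12.5% of those downstream. Upstream shares of the other classes at this distance were 43.2% for introns, 23.7% for exons and 18.9% for transcription end sites. The amount of intergenic sequence on each side was not counted, so its part in the upstream excess was not tested.

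The same rule found few features in the other lists, and most of those were upstream. The annotation class in the rule bears on the side in these lists as well. H3K4me3 replicate 2 had 7 such regions, of which 7 were upstream. TAF4b replicate 1 had 15, of which 14 were upstream, and TAF4b replicate 2 had 12, of which 10 were upstream. Against the 17 intergenic regions of replicate 2 beyond 10 kb, the upstream share of its 7 did not pass the threshold (Fisher's exact test, p = 0.0538, adjusted p = 0.373).

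Most of these regions had no promoter region of the list close by, as held for the list as a whole. The gap is the number of bp between the nearest edges of a region and of the closest region in the promoter-TSS class of the same list. Its median was 149.5 kb, with quartiles of 43.8 and 376 kb. A promoter region lay within 10 kb of 39 of 360 (10.8%, 7.82 to 14.5%), while 215 had none within 100 kb. Over all 8129 regions, promoters included and each measured to another region, the share was 6.32% and the median gap 129.2 kb. Of intron regions within 10 kb of a TSS, 133 of 1473 (9.03%) had one so close, and their median gap was 118.9 kb. The odds ratio of 1.22 (0.817 to 1.80) did not pass the threshold (Fisher's exact test, p = 0.313, adjusted p = 0.411). Beyond 10 kb of a TSS, intergenic regions had a median gap of 434.4 kb, which the distance rule largely fixes.

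Upstream regions more often had a promoter region close by. It was 34 of 255 upstream (13.3%, 9.41 to 18.1%) and 5 of 105 downstream (4.76%, 1.56 to 10.8%). The odds ratio of 3.07 had an interval of 1.15 to 10.4 (p = 0.0156, adjusted p = 0.0382, Fisher's exact test). All 17 gaps of 5 kb or less were on the upstream side. The upstream share was 70.8% of all 360 regions and 78.3% of the 175 within 5 kb of a TSS.

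**Figure D2:**
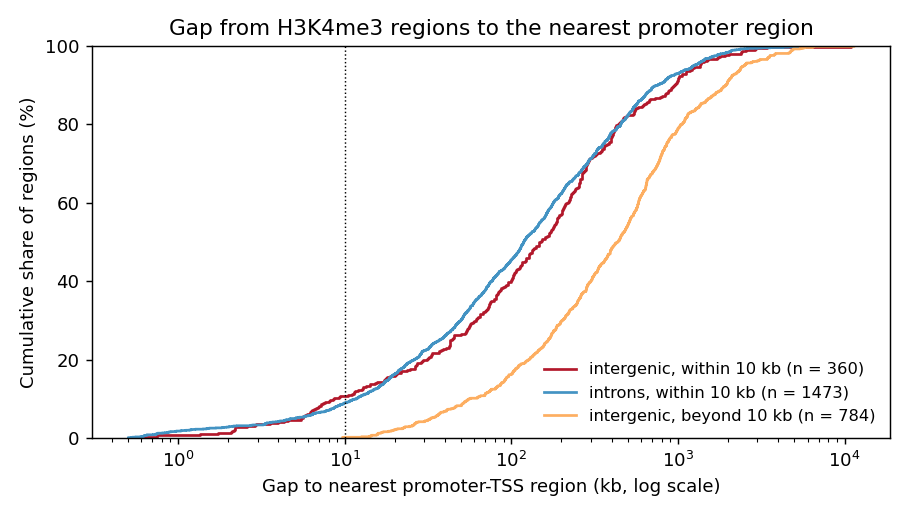
Cumulative share of regions (vertical axis, percent) against the gap to the nearest promoter-TSS region in kb on a log axis, for intergenic regions within 10 kb of a TSS (red), introns within 10 kb (blue) and intergenic regions beyond 10 kb (orange). At the dotted line of 10 kb the red curve stands at 10.8% and the blue at 9.03%, and the orange curve lies to the right with a median of 434.4 kb.

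The smallest gap was 594 bp, for chr4:33922256-33922756, 2087 bp upstream of ENSMUST00000133462 with a score of 32.5. It was followed by chr8:85390582-85391082, 1242 bp upstream of ENSMUST00000238703, with a gap of 744 bp. The next was chr10:67813700-67814200, 1450 bp upstream of ENSMUST00000118160, with a gap of 752 bp and a TAF4b peak 1056 bp away. All 3 were at the minimum width of 500 bp, as were all 5 with a gap of 2 kb or less. Those 5 were too few to compare with the 321 regions that had no promoter region within 10 kb, of which 107 were wider than 500 bp (Fisher's exact test, p = 0.176, adjusted p = 0.298).

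At the other end, chrX:116222298-116223030 had the largest gap, 10958580 bp, although it lay 2459 bp upstream of ENSMUST00000118153. The regions chr12:94788581-94789081 and chr13:6088436-6088936 followed, with gaps of 3436221 and 2956789 bp. Other H3K4me3 regions, of any class, were closer. The median gap to the nearest region of any kind was 58.9 kb, and 70 of the 360 had one within 10 kb. The nearest region was a promoter in 157 cases (43.6%), near the 43.8% of promoters in the whole list.

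For few of these regions was another listed region found at the nearest TSS. In 13 of 360 (3.61%, 1.94 to 6.10%) the nearest transcript was also the nearest transcript of a promoter region, and 12 of the 13 lay upstream. The share was 80 of 8129 (0.984%) over the whole list, which includes promoter regions at 0 of 3559, and 14 of 784 (1.79%) for intergenic regions beyond 10 kb. The share among intron regions within 10 kb was 17 of 1473 (1.15%), and the odds ratio of 3.21 had an interval of 1.42 to 7.08 (p = 0.00375, adjusted p = 0.0103, Fisher's exact test). Against introns beyond 1 kb only, an alternative added after the data were seen because no intergenic region here lies within 1 kb, the share was 1.76% and the call was lost (Fisher's exact test, p = 0.0600, adjusted p = 0.147). It was also lost with limits of 5 and 20 kb and among regions at or above the median score, at adjusted p of 0.144, 0.424 and 0.494.

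A match by transcript can miss a mark at the same start listed under another transcript, so positions were used as well. The TSS of 51 regions was settled by another feature with the same transcript, and for the other 309 both positions at the given distance were searched, which makes each count an upper limit. At most 49 of 360 (13.6%, 10.2 to 17.6%) had another H3K4me3 region of replicate 1 within 1 kb of their TSS. At most 2 had a region of H3K4me3 replicate 2 there, and at most 16 (4.44%, 2.56 to 7.12%) a TAF4b peak of either list. At least 305 (84.7%, 80.6 to 88.3%) thus had no listed feature of any of the 4 lists within 1 kb of the nearest TSS, other than the region itself. Depth is unknown, so absence from a list does not show that the mark was absent.

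The regions were narrow and of low score. Their median width was the minimum of 500 bp, with an upper quartile of 632 bp and a maximum of 1630 bp. Of the 360, 118 (32.8%, 27.9 to 37.9%) were wider than 500 bp, against 47% of all regions in the list. The share was 33.5% of intergenic regions beyond 10 kb (odds ratio 0.966, 0.733 to 1.27, p = 0.839, adjusted p = 0.923, Fisher's exact test), and the interval leaves room for differences either way. It was 41.8% of introns within 10 kb (odds ratio 0.680, 0.528 to 0.873, exact test as before, adjusted p = 0.00566). It was 55.9% of promoter regions (odds ratio 0.384, 0.303 to 0.486, exact test, adjusted p = 2.67e-16). Among regions at or above the median score, the difference from introns did not pass the threshold, at 69.7% against 76.7% (Fisher's exact test, adjusted p = 0.224). That from promoter regions still passed, at 69.7% against 82.2% (same exact test, adjusted p = 0.00238).

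The authors' peak score, whose unit is not given, ranged from 27.8 to 313.2, with a median of 37.1 and quartiles of 32.5 and 51. The list median was 41.8, which 118 of 360 exceeded (32.8%, 27.9 to 37.9%), against 49.1% of all regions. The share above it was 35.8% of intergenic regions beyond 10 kb (odds ratio 0.873, 0.663 to 1.15, p = 0.317, adjusted p = 0.411, Fisher's exact test). It was 44.1% of introns within 10 kb (odds ratio 0.618, 0.480 to 0.792, exact test, adjusted p = 0.000304). It was 58.4% of promoter regions (odds ratio 0.347, 0.273 to 0.439, exact test, adjusted p = 1.58e-19). By width and score, the regions near a TSS were therefore not distinguishable from intergenic regions farther out, and were below introns and promoters.

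**Figure D3:**
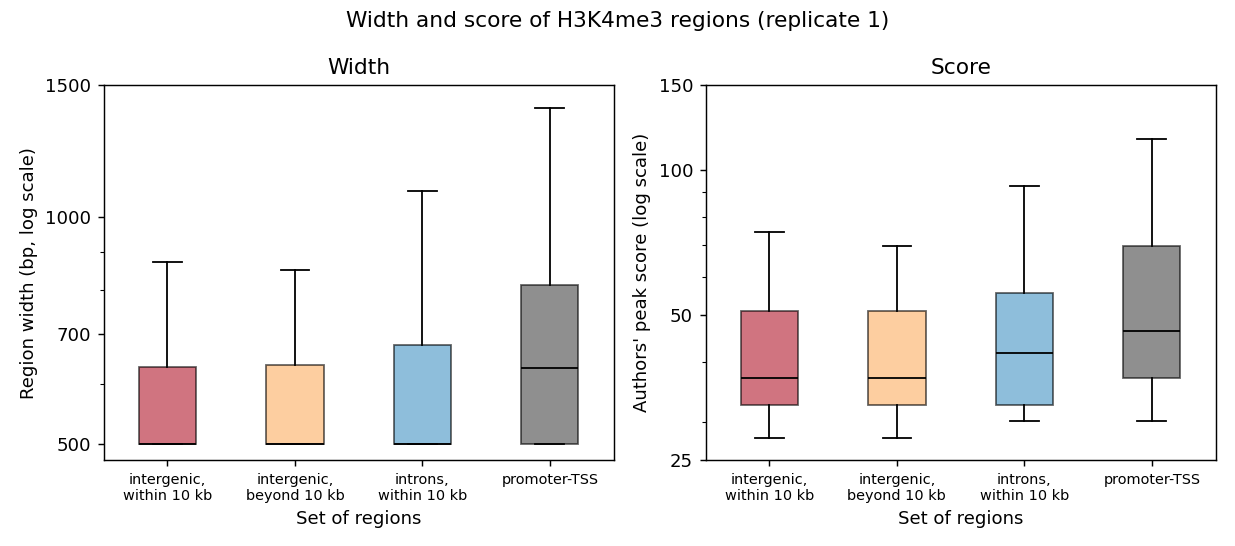
Width in bp (left) and the authors' peak score (right) of H3K4me3 replicate 1 regions, both on log axes, for the 4 sets of regions named below each box. Boxes span the quartiles with a line at the median, and whiskers reach the 5th and 95th percentiles; both intergenic sets have median widths of 500 bp and median scores of 37.1, while promoter regions have medians of 631 bp and 46.4.

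Width and score rose together over the 360 regions (Spearman rho 0.706), which share a library and a calling step in which wider regions can hold more signal. Score had almost no relation to the distance from the TSS (rho 0.0349) or to the gap (rho -0.000136). Median scores were 37.1 at 1 to 2, 2 to 5 and 5 to 10 kb. Upstream and downstream regions did not differ detectably in the share wider than 500 bp (31.4% and 36.2%, Fisher's exact test, adjusted p = 0.476) or above the median score (31.0% and 37.1%, adjusted p = 0.411).

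The highest score, 313.2, belonged to a region on the unplaced contig JH584304.1 at 50054 to 51684, 8798 bp downstream of ENSMUST00000179505. It was also the widest, at 1630 bp, and had a promoter region 7624 bp away. It stood far from the rest, since the next score was 116, at chr15:96183431-96184794. That region was 1363 bp wide, lay 1287 bp upstream of ENSMUST00000134985 and was 484897 bp from a promoter region. Scores of 113.7 at chr1:134484147-134485200 and of 106.7 at both chr13:22062557-22063538 and chr9:106455288-106456452 followed. These last 3 lay 3236, 2648 and 7675 bp upstream of their nearest TSS, with gaps of 398121, 127694 and 100498 bp.

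Downstream of a TSS, the highest scores after the contig region were 83.5 at chr4:106514655-106515664 and at chr4:134204735-134205360. They lay 6856 bp beyond the start of ENSMUST00000058905 and 7994 bp beyond that of ENSMUST00000105868. The third widest region, chr5:116544223-116545459, was also downstream, at 9110 bp from ENSMUST00000133335, with a width of 1236 bp and a score of 69.6.

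Each region mostly had a transcript to itself. The 360 had 357 nearest transcripts, and 3 transcripts had 2 regions each. ENSMUST00000001884 on chromosome 7 had upstream regions with scores of 32.5 and 44.1 set 935 bp apart. ENSMUST00000131207 on chromosome 2 had downstream regions with scores of 51 and 30.2 set 970 bp apart. ENSMUST00000193272 on chromosome 1 had a region on either side, 11180 bp apart. On the placed chromosomes, the regions made up between 2.87% (chromosome 16) and 5.63% (chromosome 3) of the listed regions of each, with 8 on the X.

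The 10 kb limit cut through a continuous range. The last regions inside were at distances of 9957, 9965 and 9975 bp, with scores of 55.7, 30.2 and 41.8 and widths of 500 bp. The first outside were at 10088, -10104 and 10118 bp, with scores of 58, 30.2 and 39.4 and widths of 711, 500 and 500 bp.

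Almost none of the regions was found in the second H3K4me3 library. A single region of 360 overlapped a region of replicate 2 (0.278%, 0.00703 to 1.54%), against 2.84% of all replicate 1 regions. Replicate 2 listed only 320 regions, of which 7 met the same rule, so few regions of any class could be found. The part of its length and class make-up in the differences below was not tested. Of 3559 promoter regions, 178 overlapped one (5.00%, 4.31 to 5.77%). The odds ratio of 0.0529 had an interval of 0.00133 to 0.301 (p = 8.40e-07, adjusted p = 3.70e-06, Fisher's exact test). The share was 0.765% for 784 intergenic regions beyond 10 kb and 1.49% for 1473 introns within 10 kb, and neither difference passed (Fisher's exact test, adjusted p = 0.514 and 0.146). The intervals of those odds ratios, 0.00783 to 3 and 0.00444 to 1.14, are wide.

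Among promoter regions, those with higher scores were found more often, so the shares are also given by score. Among regions scoring above 60.3, the upper quartile of the list, 0 of 43 near intergenic regions were found in replicate 2. Its exact interval reaches 8.22%, and 3 counts of 43, taken as the limit that a count of 0 allows, are 6.98%. In that range it was 104 of 1117 promoter regions (9.31%, 7.67 to 11.2%) and 11 of 277 introns (3.97%, 2.00 to 6.99%). Both intervals overlap that of the near intergenic regions, and no test was run in that range. At or above the list median score, 0 of 145 near intergenic regions were found. The share was 6.89% of promoter regions, a difference past the threshold (Fisher's exact test, p = 7.68e-05, adjusted p = 0.00073). It was 2.39% of introns within 10 kb, which did not pass (same exact test, adjusted p = 0.228). In the lowest quartile, at 34.8 or below, 0 of 146 near intergenic regions (exact upper limit 2.49%, 3 counts 2.05%) and 9 of 795 promoter regions (1.13%) were found.

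The region found in both libraries was chr4:136901419-136901919, 9292 bp upstream of ENSMUST00000151040. It was not among the strong ones, with a score of 37.1 and a width of 500 bp in replicate 1. Its counterpart in replicate 2, chr4:136901587-136902087, scored 70.9, shared 332 bp with it and was annotated in the same way. No promoter region of replicate 1 lay within 213587 bp, and no TAF4b peak overlapped it.

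Seen from replicate 2, 1 of the 7 regions that met the rule there was found in replicate 1 (14.3%), against 81.4% of its promoter regions, a difference past the threshold (Fisher's exact test, adjusted p = 0.0052). These are overlaps between the same 2 lists, so this call is not separate from the one above. The shares of replicate 2 introns within 10 kb and distant intergenic regions were 57.1% and 35.3%, and neither difference passed (same exact test, adjusted p = 0.373 and 0.937). The strongest of the 7, chr17:40154046-40156950, had the second highest score of its list, 3956.2, and lay 1088460 bp from any replicate 1 region. A TAF4b peak of replicate 2 stood 926 bp from it, and at 119.7 that peak had the highest score of its list. The nearest TAF4b replicate 1 peak was 4001728 bp away. The next, on the contig JH584304.1 at 67686 to 68756, scored 680.6 and was 7353 bp from a replicate 1 region. Repeat content at these 2 places was not examined, since no GRCm39 sequence was used here. The other 5 had widths of 500 bp and scores of 70.9 to 106.4. The widths of 2 of the 7 were above 500 bp (28.6%), against 11.4% of introns within 10 kb and 12.7% of promoter regions in that list. This direction is opposite to that in replicate 1 and did not pass (Fisher's exact test, adjusted p = 0.483 for both). Scores above that list's median were found at 3 of the 7, and a TAF4b overlap at 0 of the 7, and the differences from promoter regions did not pass (same exact test, adjusted p = 1 and 0.373).

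TAF4b was found at 4 of the 360 regions (1.11%, 0.304 to 2.82%), against 10.7% of all H3K4me3 regions of replicate 1. At promoter regions the count was 766 of 3559 (21.5%, 20.2 to 22.9%), and the odds ratio of 0.0410 had an interval of 0.0111 to 0.106 (p = 5.67e-30, adjusted p = 1.25e-28, Fisher's exact test). At intergenic regions beyond 10 kb it was 2 of 784 (0.255%), and the odds ratio of 4.39, with an interval of 0.625 to 48.7, did not pass (p = 0.0822, adjusted p = 0.164, Fisher's exact test). At introns within 10 kb it was 32 of 1473 (2.17%), and neither did the odds ratio of 0.506, with an interval of 0.129 to 1.44 (p = 0.287, adjusted p = 0.411, same exact test). With TAF4b edges within 1 kb, 5 of 360 (1.39%) and 5.97% of introns counted, a difference past the threshold (same exact test, adjusted p = 0.000414). The intron set includes regions within 1 kb of a TSS, while the 360 regions start at 1021 bp. Against introns beyond 1 kb of a TSS, of which 0.353% held TAF4b at the 1 bp rule, the direction turned without passing (Fisher's exact test, adjusted p = 0.349). The 1 kb edges were not tried with introns beyond 1 kb only.

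**Figure D4:**
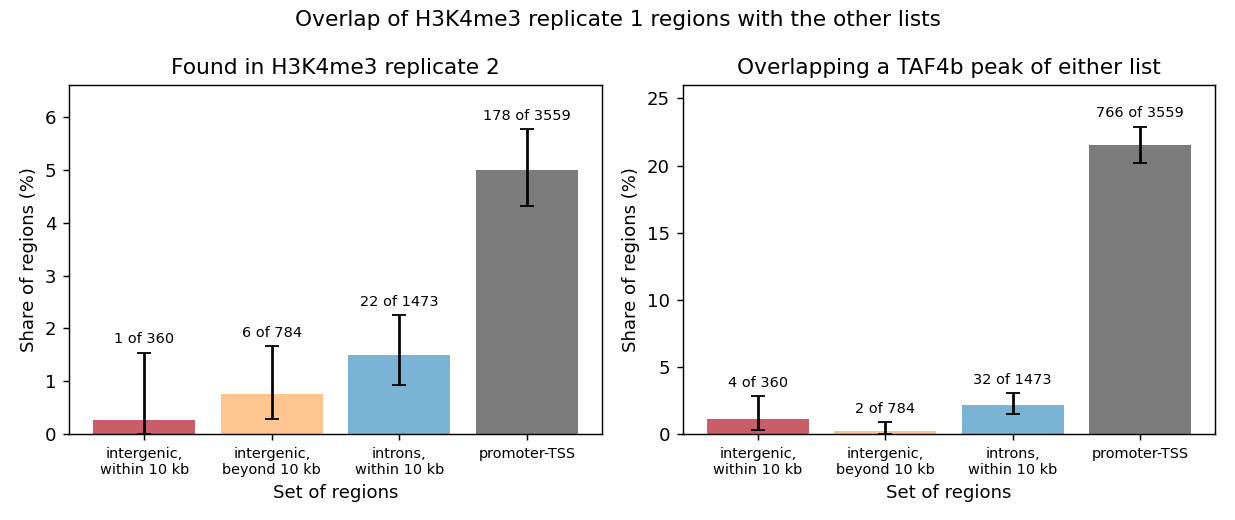
Share of H3K4me3 replicate 1 regions, in percent, that overlapped a region of H3K4me3 replicate 2 (left) or a TAF4b peak of either list (right), for the 4 sets of regions; bars are shares, error bars exact 95% intervals, and the counts stand above. Near intergenic regions stand at 1 of 360 and 4 of 360, below promoter regions at 178 and 766 of 3559.

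The 4 regions with TAF4b differed in distance, score and neighbourhood. TAF4b peaks of both replicates lay in 3 of them, and of replicate 1 alone in the other. The region chr1:134484147-134485200, with the third highest score of the 360 at 113.7, held peaks with scores of 10 and 26.4 in replicates 1 and 2. Those peaks were centred 160 and 161 bp from the region's centre. Their scores were above the list medians of 7.7 and 18.3, and no promoter region lay within 398121 bp.

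The region chr6:49194680-49195460 scored 60.3 and lay 3179 bp upstream of ENSMUST00000031838, whose promoter carried an H3K4me3 region 2104 bp away. Its TAF4b peaks scored 10.4 and 22.3 and were centred 30 and 45 bp from its centre. The region chr11:31820397-31821029 scored 41.8 and lay 1498 bp upstream of ENSMUST00000020543, with no promoter region within 396241 bp. Its peaks scored 6.54 and 22.3 and were centred 77 and 90 bp from its centre. The fourth, chr10:21934394-21934894, was the only downstream region of the 4, at 6494 bp from ENSMUST00000217665. It scored 32.5 and held a replicate 1 peak of score 6.93, centred 1 bp from its centre.

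Seen from TAF4b, the rule of an intergenic centre within 10 kb of a TSS was met by 15 of 983 peaks of replicate 1 and 12 of 1111 of replicate 2. Of these, 4 and 3 overlapped one of the 360 regions. H3K4me3 replicate 1 had a region of any class at 5 of the 15 and 3 of the 12. None of the 4 H3K4me3 regions with TAF4b was found in H3K4me3 replicate 2.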

How the data were processed

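H3K4me3, TAF4b and IgG libraries, 2 of each, were grouped by the antibody target and replicate number in their titles. The build GRCm39 and the tools HOMER 4.10, Bowtie2 2.3.0, SAMtools 1.9, FastQC 0.11.5, Trim Galore 0.5.0 and bcl2fastq 2.20 are listed in the submitters' processing notes, with no role or settings. The authors deposited 1 list per H3K4me3 and TAF4b library, with a peak score whose scaling is not given, a signed distance to the TSS in bp and, for H3K4me3, a region width in bp, per the file headers. Scores were therefore compared only within a list. IgG was not analysed here, and read depth is unknown.

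Regions overlapped if they shared at least 1 bp. Shares have exact (Clopper-Pearson) 95% intervals. Fisher's exact test, two-sided, compared pairs of shares, and odds ratios are conditional estimates. The p-values were adjusted by the Benjamini-Hochberg method over 22 tests, with a threshold of 0.05. Of these, 9 passed. Regions of a list are not replicates, so these tests compare sets of regions within 1 library, and intervals cover counting error only. The overlap, gap and share tests were checked on simulated data. Alternatives covered the distance limit, the score, the contigs, the promoter definition, the overlap rule and the lists used. Members and tests were chosen with earlier results of these data known.

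Named regions are the 5 with the highest scores, the 5 highest found in H3K4me3 replicate 2, those with TAF4b, the 3 widest, the 3 highest downstream, those with the 3 smallest and 3 largest gaps, the 3 on either side of the 10 kb limit and the transcripts with most members. The planned list of oocyte genes and the planned sequence composition were not run. A table of RefSeq genes of GRCm38.p6 matched 0 of 357 transcripts, and no GRCm39 sequence was used here. Python 3.11.15, pandas 2.3.3, NumPy 2.4.6, SciPy 1.17.1 and matplotlib 3.10.9 were used.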

Additional observations from a re-analysis of the deposited data

How the results depend on the processing

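Differences are in percentage points, near intergenic regions minus the other set. Of 100 alternatives to 15 comparisons, 80 kept direction and call, 10 lost the call, 1 gained it and 9 reversed, and none of the 9 reversed values passed. Without H3K4me3 replicate 1, the rule left 7 regions of replicate 2, which limits every such value. Presence in the other H3K4me3 list there means overlap with replicate 1. It counts overlaps between the same 2 lists from the other side. Its difference from promoters, -67.2, passed but is not separate support. The upstream difference was then 47.1 (18.0 as reported), that in promoters with the same transcript 14.3 (2.46), those in width 10.9, 17.1 and 15.9 against distant intergenic regions, introns and promoters (-0.768, -8.97 and -23.2), those in score -2.86 and -2.84 against introns and promoters (-11.3 and -25.7), and those in TAF4b -5.88 and -36.2 against distant intergenic regions and promoters (0.856 and -20.4). The difference in same-transcript promoters lost its call at 1.80 and 0.748 with limits of 5 and 20 kb, 1.43 at scores at or above the median and 1.85 against introns beyond 1 kb. The difference in promoter regions within 10 kb (1.80) was -0.150 with a limit of 20 kb, -0.371 at the higher scores and -0.302 with a gap limit of 5 kb. Width against distant intergenic regions was 3.21 with a limit of 20 kb, and against introns -7.00 at the higher scores, where the call was lost. TAF4b against introns (-1.06) was -4.59 within 1 kb, past the threshold, and 0.758 against introns beyond 1 kb. These settings were not combined. The causes were not tested. Introns beyond 1 kb were added after the data were seen. Without TAF4b replicate 1 or 2, the differences in TAF4b were 0.706 and 0.984 from distant intergenic regions, -0.592 and -0.315 from introns and -15.0 and -11.8 from promoters. The labels do not say that replicate numbers pair the libraries; with the replicate block of same-numbered lists the last of these was -12.6, and no TAF4b call changed. Leaving out H3K4me3 replicate 2 gives no value for presence in it.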
